A study of Mus musculus with 35 samples.

Results

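The genes described here are Prdm14, Dppa5a, Dppa2, Dppa4, Utf1 and Tcl1, 6 of 21631 protein-coding genes on chromosomes 1 to 19 and X, followed through the reprogramming of mouse fibroblasts to pluripotency. They were selected from measured peaks of these libraries as genes marked late, so the stage at which their peaks appear is a description and carries no test. Around them lay 58 of 106500 regions of acetylated histone H3 lysine 27 (H3K27ac) and 26 of 37140 regions bound by the transcription factor KLF4, each counted when a peak overlapped the gene or the 50 kb to either side. For each gene it was asked which regions carried peaks, in how many libraries, at which stage, and what differed between day 9 and embryonic stem cells (ESC).

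H3K27ac is deposited on nucleosomes at active promoters and enhancers, and KLF4 is a zinc-finger factor that binds such elements in ESC and is itself one of the reprogramming factors. Most of the genes followed here are silent in fibroblasts and belong to the set that is switched on when pluripotency is reached. Prdm14 codes for a PR-domain zinc-finger protein that sustains naive pluripotency and is needed for germ cell specification. Dppa2 and Dppa4 code for SAP-domain proteins that act as a pair on chromatin and keep developmental promoters free of DNA methylation. Dppa5a codes for an RNA-binding protein with a KH domain, Utf1 for a chromatin-bound factor of undifferentiated cells, and Tcl1 for a coactivator of the kinase AKT.

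Mouse embryonic fibroblasts (MEF) of a C57BL/6 x 129 background carried a polycistronic OKSM cassette (the factors OCT4, KLF4, SOX2 and MYC) at Col1a1 and the transactivator M2rtTA at ROSA26, and the untreated fibroblasts carried both as well. They were reprogrammed in ESC medium (1000 U/ml LIF) to which doxycycline (1 µg/ml) and ascorbic acid (50 µg/ml) had been added, and were collected unsorted on day 3 and after sorting for SSEA+ (as the labels write it) on days 6 and 9. The ESC were of 1 line, V6.5, of the same mixed background and without a reprogramming cassette named in the labels, grown on irradiated feeder cells in medium with serum and LIF. For part of the KLF4 libraries the medium also held 2i, that is 1 µM of a MEK inhibitor and 3 µM of a GSK3 inhibitor. H3K27ac was measured in 12 libraries (2 MEF, 3 day 3, 3 day 6, 2 day 9 and 2 serum ESC) and KLF4 in 10 libraries (2 each of day 3, day 6, day 9, serum ESC and 2i ESC). No label says whether libraries of a stage came from separate cultures, so the spread between them may be technical.

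A peak list held between 17493 and 88347 peaks for H3K27ac and between 21129 and 34640 for KLF4. The day 9 lists for H3K27ac, with 43974 and 45506 peaks, were shorter than the ESC lists, with 81971 and 81231. The day 6 lists for H3K27ac were the shortest, with 17493 to 22462 peaks. The day 9 H3K27ac libraries came from batch EA-3702 and the ESC ones from batch DG-3458, so that stage and batch cannot be told apart in that step. The same holds for KLF4, with day 9 from batch EA-3702 and serum ESC from batches EA-2697 and EA-2643. H3K27ac lay at all 10 fibroblast marker genes in both MEF libraries, at 3 of 10 in both day 9 libraries and at 3 of 10 in both ESC libraries. It lay at 2 of 5 core pluripotency markers in both MEF libraries, at 5 of 5 in both day 9 libraries and at 5 of 5 in both ESC libraries. All peak folds below are the authors' own enrichment values for a peak, and a gene without a peak is not thereby a gene without signal.

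All 6 genes carried an H3K27ac peak in both ESC libraries, counted over the gene and 2.5 kb to each side, and none carried one in any day 3 or day 6 library. Of all protein-coding genes, 65.9% had a peak in both ESC libraries and 35.4% had none in any day 3 or day 6 library. On day 9, Utf1 and Dppa5a had a peak in both libraries, 2 of 6 genes beside 63.5% of all, while Prdm14, Dppa2, Dppa4 and Tcl1 had none in either. Acetylation was thus gained between day 9 and ESC, in the sense of no day 9 library and both ESC libraries, at 4 of the 6 genes, and 5.00% of all protein-coding genes were called by the same rule. In serum ESC, 5 of the 6 genes, all but Prdm14, had KLF4 in both libraries, beside 40.5% of all genes. From day 9 to serum ESC KLF4 was gained at Dppa5a, Dppa2 and Dppa4, that is at 3 of the 6 genes, against 4.35% of all genes. Since the genes were selected on this step, these shares stand side by side as a description. As a description, H3K27ac peaks at Prdm14, Dppa2, Dppa4 and Tcl1 were called in ESC only. Utf1 was acetylated and bound by day 9. Dppa5a had only weak H3K27ac peaks then and no KLF4 peak. Their folds were 2.54 and 2.14, at the percentiles 19.4 and 2.06 of their lists by score. With equal numbers of peaks per library, Dppa5a was among the genes with gained H3K27ac. Among the better-scoring 50% of each list neither Utf1 nor Tcl1 kept KLF4 in both day 9 libraries.

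**Figure D1:**
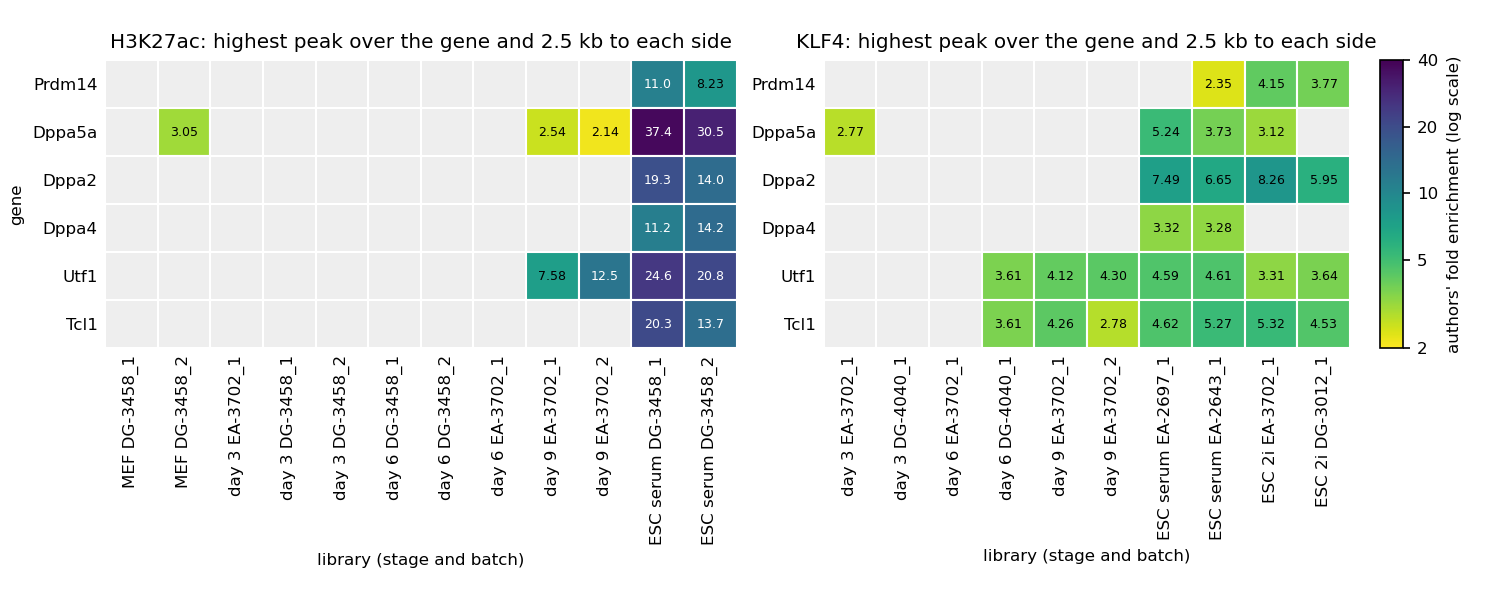
Each cell gives the authors' fold enrichment (log colour scale) of the highest peak over a gene and 2.5 kb to each side in 1 library, for H3K27ac on the left and KLF4 on the right, and grey cells had no peak. All 6 genes have H3K27ac peaks in both ESC libraries, with folds from 8.23 for Prdm14 to 37.4 for Dppa5a, while on day 9 only Utf1 and Dppa5a have any, and KLF4 reaches Utf1 and Tcl1 before ESC in 3 libraries each.

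Counted by regions within 50 kb, each once, 49 of 58 H3K27ac regions had a peak in both ESC libraries, beside 45.8% of all H3K27ac regions, and 9 had one in both day 9 libraries, beside 29.7%. Of the 58, 40 (69.0%) were gained from day 9 to ESC, beside 25.3% of all H3K27ac regions. A peak in both ESC libraries and in no library of MEF, day 3, day 6 or day 9 was found for 39 (67.2%), beside 21.8% of all regions. For KLF4, 12 of 26 regions (46.2%) were gained from day 9 to serum ESC, beside 14.4% of all KLF4 regions, and 11 (42.3%) were bound in both serum ESC libraries and in no earlier one, beside 9.13%. These numbers moved with the lists, to 15 gained H3K27ac regions with equal numbers of peaks per library, to 66 without the ESC library DG-3458_2, and to 21 gained KLF4 regions without the serum library EA-2697_1. The genes differed among themselves in this respect. All 10 H3K27ac regions around Dppa2 and Dppa4 were gained, as were 16 of 21 around Prdm14 and 4 of 6 around Dppa5a, but only 8 of 17 around Utf1 and 2 of 4 around Tcl1. Without 1 ESC library a single peak sufficed. The gained regions then numbered 16 at Dppa2 and at Dppa4 and 27 at Prdm14 (without DG-3458_1). They numbered 7 at Dppa5a, 14 at Utf1 and 5 at Tcl1 (without DG-3458_2). With equal numbers of peaks per library they fell to 4 at Dppa2, 7 at Prdm14 and 2 at Dppa5a. With a q-value of at most 0.01 they fell to 5, 11 and 2 at these 3 genes.

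At the edge of the window, the farthest H3K27ac region counted lay 48.8 kb from Utf1 and had a peak in both MEF libraries and 1 ESC library. The nearest one left out lay 51.9 kb from Prdm14 and had a peak in 1 day 6 library, both day 9 and both ESC libraries. For KLF4 the farthest region counted lay 46.5 kb from Tcl1 and was found in no ESC library, and the nearest left out lay 53.3 kb from Prdm14 and was found in both libraries of every stage from day 3 to serum ESC and in 1 of 2 2i libraries.

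Prdm14 (chr1:13113428-13127163, mm10) had the widest acetylated surroundings of the 6 genes in ESC. H3K27ac peaks covered 36.4 and 34.9 kb of its 114 kb window in the ESC libraries, and 2.00 and 1.76 kb in the day 9 libraries. Nothing was covered in the 3 day 3 and 3 day 6 libraries, and the 0.811 and 0.486 kb in MEF lay within Ncoa2, a nuclear receptor coactivator gene. The ESC values were therefore apart from those of every other stage. Over the gene, the strongest ESC peaks lay at its higher-coordinate end. The region at chr1:13128205-13128945, 1.04 kb beyond the gene, had folds of 11.0 and 7.04, and the one at chr1:13124712-13128149 had 9.21 and 8.23. The other 3 regions within 2.5 kb had folds from 2.92 to 3.84, and none of the 5 had a peak in a MEF or reprogramming library.

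The larger part of the acetylation near Prdm14 lay on its lower-coordinate side, in a chain of 12 regions from 7.56 to 41.8 kb away that reaches across the long noncoding RNA gene Gm39592. The region with the best ranks over the ESC libraries, chr1:13093053-13096993 at 16.4 kb, had folds of 13.3 and 22.1, and the next, chr1:13074638-13081806 at 31.6 kb, had 18.0 and 17.1. Both were without a peak before ESC. Weak day 9 acetylation was nevertheless present in this chain, at places named here after their values were seen. The region at chr1:13084933-13087585, 25.8 kb away, had day 9 folds of 2.98 and 4.03 before ESC folds of 6.03 and 5.96. The one at chr1:13102707-13105867, 7.56 kb away, had 2.59 and 2.78 on day 9 and 6.18 and 5.10 in ESC. The outermost, chr1:13068944-13071588 at 41.8 kb, had 2.70 and 3.54 on day 9 and 9.98 and 11.1 in ESC. Within the 50 kb, day 9 was thus the earliest stage with H3K27ac in the chain, and the gene itself had no peak then.

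KLF4 lay at 8 regions around Prdm14, all of them in that same flank. The first by mean score rank over the serum ESC libraries, chr1:13103648-13104436 at 8.99 kb from the gene, had a peak in 1 day 3 library (fold 3.99), in both day 6 libraries (4.19 and 6.02), in both day 9 libraries (9.17 and 8.43), in both serum ESC libraries (3.93 and 8.40) and in both 2i libraries (12.7 and 9.59). The region at chr1:13084577-13085458, 28.0 kb away, which held the highest KLF4 fold near the gene, was bound from day 6 (3.89 and 4.72) through day 9 (8.11 and 6.80) to serum ESC (3.44 and 6.12) and 2i (8.70 and 14.5). KLF4 therefore was at these places in both day 6 libraries, where no H3K27ac peak lay in the window in any of 3 libraries. Both overlap regions that had acetylation in both day 9 libraries. Another region, chr1:13074470-13075022 at 38.4 kb, had a peak in both libraries of days 6 and 9, with folds of 3.00 to 3.89. It had no day 9 acetylation. Of these KLF4 peaks only that of the day 6 library DG-4040_1 passed a q-value of 0.01. The other day 6 peak had a −log10 q of 1.89, and the day 9 peaks had 0.887 and 0.883. The region second by mean score rank, chr1:13094652-13094954 at 18.5 kb, had 5.01 and 3.89 in serum ESC, and 4.41 in 1 day 6 library.

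Over Prdm14 itself KLF4 was seen in ESC only, and thinly. The serum library EA-2697_1 had no peak and EA-2643_1 had one of fold 2.35, with a −log10 q of 1.09. The 2i libraries had highest folds of 4.15 and 3.77, but at opposite ends of the gene, so that no region within 2.5 kb was shared by both 2i libraries. The weak serum peak and a second peak of the 2i library EA-3702_1, of fold 3.45, lay at the same place beyond the higher-coordinate end.

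**Figure D2:**
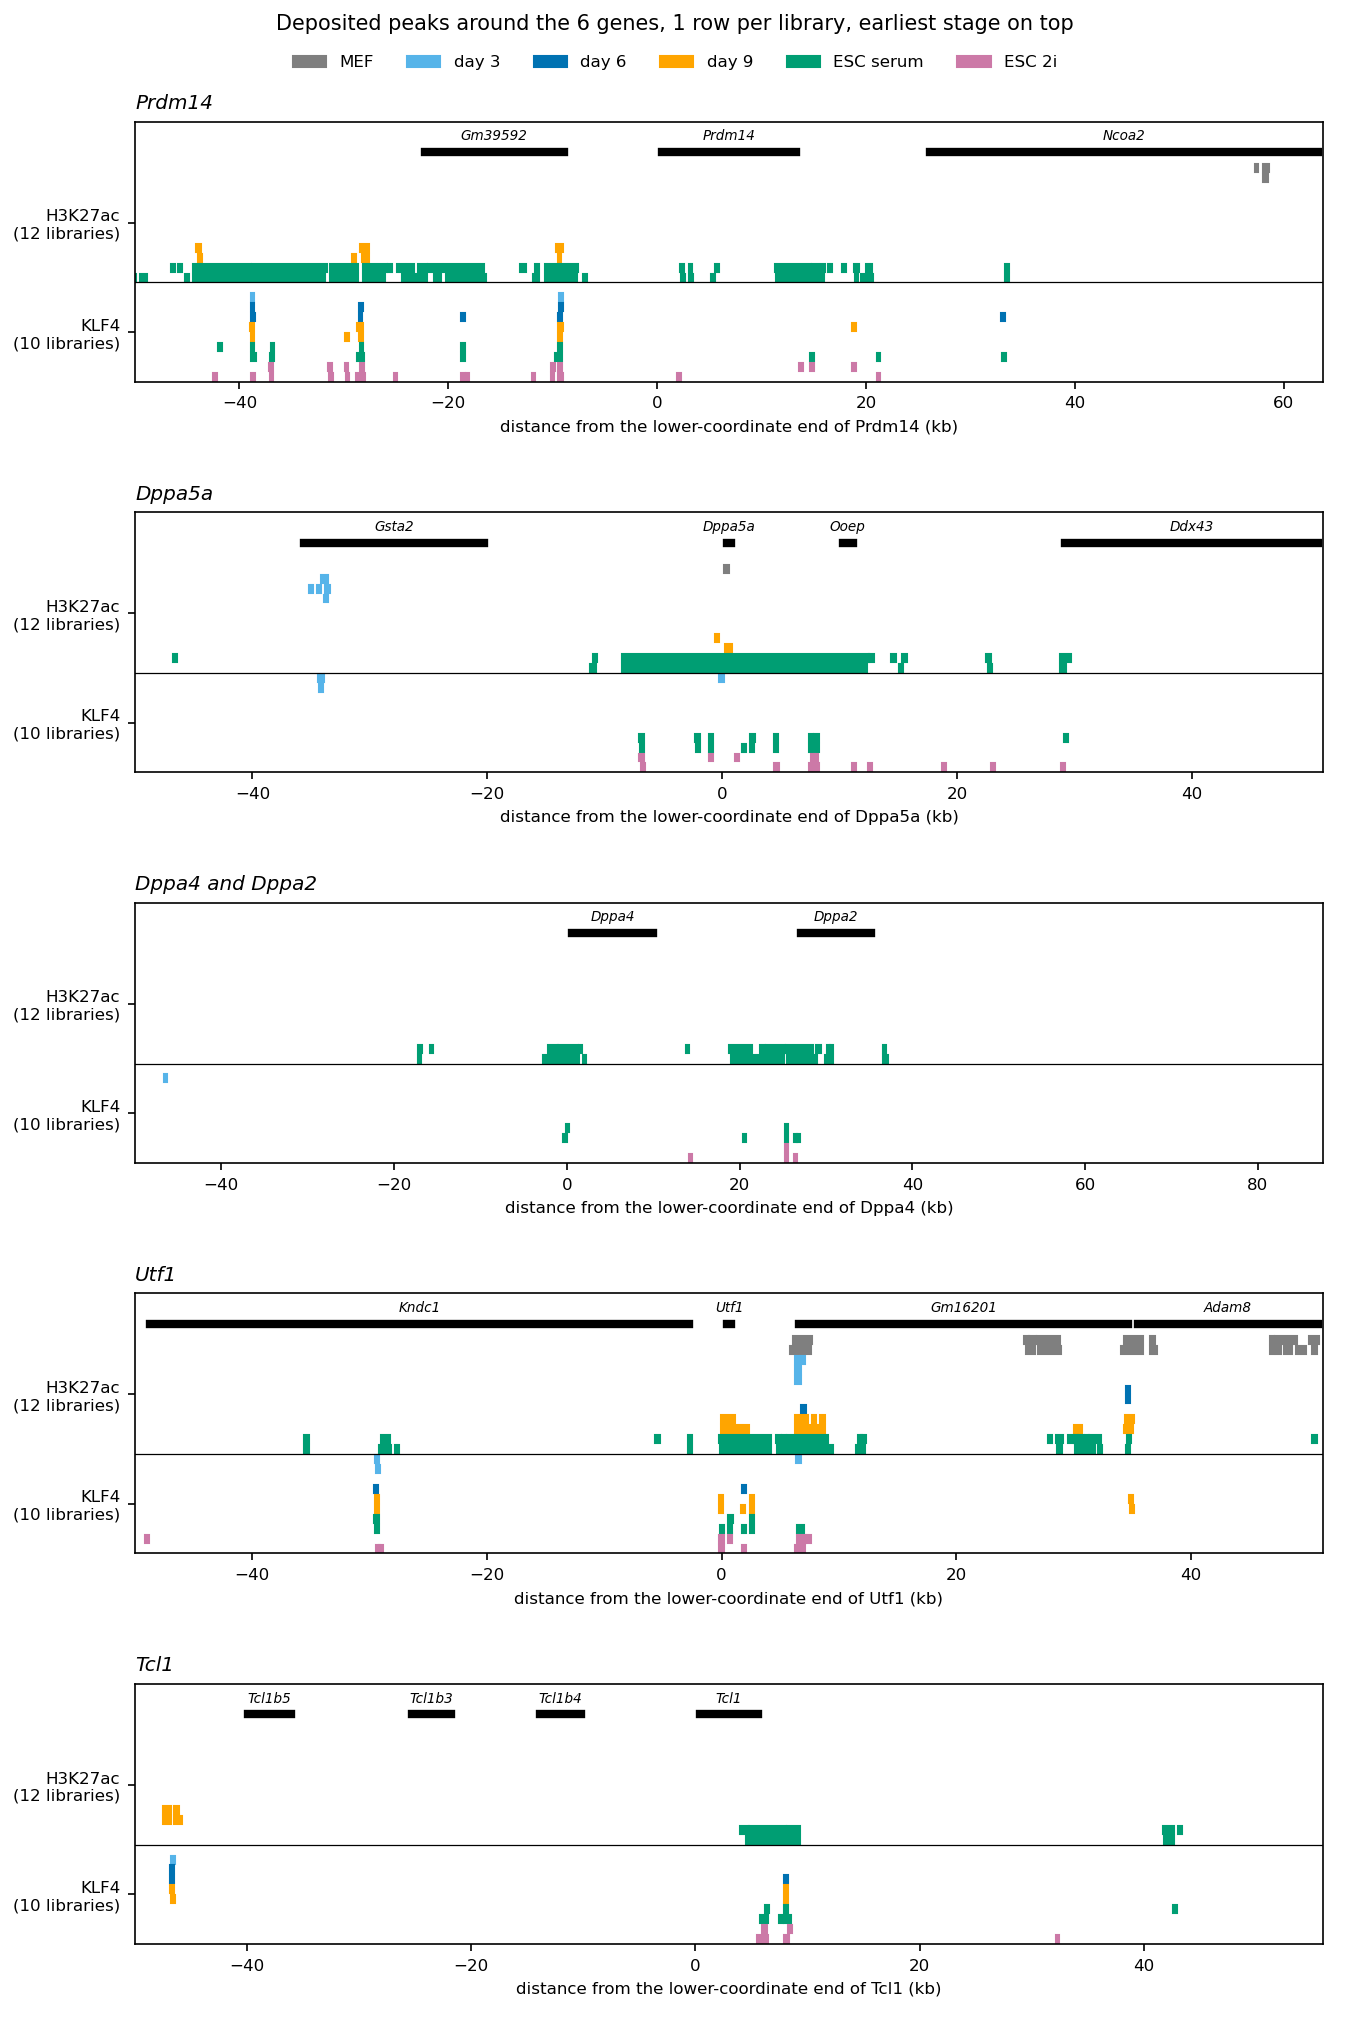
Deposited peaks around each gene are drawn by distance in kb from the gene's lower-coordinate end, 1 row per library from the earliest stage at the top, with genes as black bars and peaks drawn at least 0.35 kb wide so that they are visible. Green ESC peaks fill the flank of Prdm14 and the stretch around Dppa5a, orange day 9 peaks appear in 4 regions of the Prdm14 flank, and the window of Dppa2 and Dppa4 has H3K27ac in ESC alone.

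Dppa5a (chr9:78367052-78368199) carried the highest H3K27ac folds of the 6 genes in ESC. In each ESC library a single H3K27ac peak covered the gene, its surroundings and the neighbouring Ooep, which codes for another KH-domain protein, known from oocytes. These peaks were 20988 and 20916 bp long with folds of 37.4 and 30.5, at the percentiles 99.5 and 99.2 of their lists by score. On day 9 the gene had a peak of 341 bp and fold 2.54 in one library and of 588 bp and fold 2.14 in the other, and these did not overlap each other. The second did not pass a q-value of 0.01, its −log10 q being 0.689. One MEF library had a peak of 384 bp and fold 3.05, with a −log10 q of 1.55, and the day 3 and day 6 libraries had none over the gene. H3K27ac covered 24.1 and 22.6 kb of the window in ESC and 0.341 and 0.588 kb on day 9. The step from day 9 to ESC was therefore wide here too, although weak peaks kept the gene from being counted as gained.

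KLF4 lay at 6 regions inside this 21.0 kb acetylated stretch, each with a peak in both serum ESC libraries and none on day 6 or day 9. The 3 within 2.5 kb of the gene had folds of 4.26 and 3.29 (chr9:78364760-78365132), 3.20 and 3.73 (chr9:78365907-78366150), and 5.24 and 2.95 (chr9:78369391-78369801). The highest of the 6 was chr9:78371464-78371769, 3.27 kb from the gene, with 5.90 and 7.61, and the next in rank beyond 2.5 kb was chr9:78374406-78375264 near Ooep, with 5.39 and 3.40. In 2i only 2 of the 6 had a peak in both libraries, and 2 had none in either. A single day 3 library had a KLF4 peak of fold 2.77 at the gene, with a −log10 q of 1.12.

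The neighbours of Dppa5a divided by stage. Ooep had H3K27ac in both ESC libraries and KLF4 in both serum and both 2i libraries, and neither before ESC. Ddx43, a gene for an RNA helicase of germ cells, had H3K27ac in ESC alone, with folds of 9.47 and 9.02 at chr9:78395805-78396734. The next acetylated region in rank, chr9:78389540-78389957 at 21.3 kb from Dppa5a, was also found in ESC alone, with 4.70 and 4.92. Gsta2, a glutathione transferase gene on the other side, was the reverse, with H3K27ac in 3 of 3 day 3 libraries (2.37, 3.66 and 3.25) and KLF4 in both day 3 libraries (4.10 and 2.66), and in none of another stage.

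Dppa4 (chr16:48283735-48294292) and Dppa2 (chr16:48310274-48319513) lie 16.0 kb apart, so their windows share the same 10 H3K27ac and 2 KLF4 regions and are no independent observations. No H3K27ac peak lay in the shared window in any of the 10 MEF, day 3, day 6 and day 9 libraries. In ESC, peaks covered 14.9 and 13.9 kb. Of the 6 genes, these were the only ones with no H3K27ac peak within 50 kb in all 10 earlier libraries. At Dppa2 the strongest region, chr16:48309112-48312250 over the lower-coordinate end, had folds of 19.3 and 14.0, and the adjoining chr16:48307158-48309002 had 8.89 and 9.32. The 4 other regions within 2.5 kb had folds from 2.37 to 3.64. Dppa4 had 1 region, chr16:48281514-48285527 over its lower-coordinate end, with 11.2 and 14.2. Between the genes, chr16:48302564-48305193 had 10.8 and 15.8, at 5.08 kb from Dppa2 and 8.27 kb from Dppa4.

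Both KLF4 regions of this pair lay at the gene ends that carried the acetylation, and neither was bound before ESC. The one at chr16:48308944-48309332, 0.942 kb from Dppa2, had folds of 7.49 and 6.65 in serum and of 8.26 and 5.95 in 2i, so it was found in all 4 ESC libraries. The one at chr16:48283345-48283751, at the end of Dppa4, had 3.32 and 3.28 in serum and no peak in either 2i library. Its serum peaks had −log10 q of 0.450 and 5.44, so the first did not pass a q-value of 0.01. KLF4 was thus called in both 2i libraries at Dppa2 and in neither at Dppa4. With 2 libraries for each medium from different batches, a difference by medium was not tested. Without the serum library EA-2697_1, when a single serum peak sufficed, the KLF4 regions gained from day 9 to ESC numbered 5, not 2, at each gene.

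Utf1 (chr7:139943856-139945112) had the highest day 9 folds of H3K27ac over the gene among the 6. They were 7.58 and 12.5, against 2.54 and 2.14 at Dppa5a and no peak at the others, and the ESC folds were 24.6 and 20.8, with nothing in MEF, day 3 and day 6. In the ESC libraries the region ran over chr7:139943667-139948077, 4.41 kb, and the day 9 peaks over the gene were 1173 and 1785 bp long. Its surroundings were also acetylated in fibroblasts, over a longer stretch than the at most 0.811 kb of the other genes. Peaks covered 9.41 and 9.33 kb of the window in MEF, 3.71 and 6.17 kb on day 9 and 14.7 and 14.2 kb in ESC. The region at chr7:139948494-139953339, 3.38 kb away at the start of the noncoding Gm16201, had folds of 17.7 and 12.6 in MEF, from 3.36 to 4.23 on day 3, 2.82 and 5.90 on day 9, and 16.0 and 11.3 in ESC, and on day 6 a peak of 2.08 in 1 of 3 libraries. The strongest MEF region, chr7:139970696-139972962 near Spef1l, had 26.9 and 28.0 in MEF, no peak from day 3 to day 9, and 5.30 and 5.36 in ESC. A further 5 regions at Spef1l and Adam8, a metalloprotease gene, had peaks in both MEF libraries and not in both ESC libraries. Another region there, chr7:139977871-139979774, had peaks in both MEF libraries (10.6 and 12.8) and in 2 of 3 day 6 libraries. It also had peaks in both day 9 libraries (4.25 and 7.29) and both ESC libraries (4.04 and 7.47). The acetylation over Utf1 itself and the MEF acetylation of its neighbours thus lay in one window without sharing a region.

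KLF4 at Utf1 was found at 3 regions within 2.5 kb. The region at the promoter, chr7:139943604-139944023, had a peak in both day 9 libraries (3.19 and 4.30), in 1 serum library (3.04) and in both 2i libraries (3.31 and 3.64). The one inside the gene, chr7:139944391-139944586, was found in both serum libraries (4.59 and 4.61) and in 1 of the 2i libraries (2.73), and not on day 9. The last of them, chr7:139946243-139946495 at 1.13 kb, had 4.12 and 3.79 on day 9, 3.48 and 1.94 in serum and none in 2i. Of the 2 day 9 peaks at the promoter 1 passed a q-value of 0.01, as did 1 of the 2 at the last region, and the −log10 q of the others was 0.416 and 1.60. In ESC, the serum peaks inside the gene and at the promoter passed. The serum peaks at the last region (−log10 q of 0.759 and 0.381) and the 2i peaks at the promoter (1.94 and 1.87) did not. The 2i peak inside the gene had 0.367 and did not pass either. Outside these regions, but within 2.5 kb of the gene, peaks overlapped at one place in 1 library each of day 6 (3.61), day 9 (4.01), serum (2.16) and 2i (3.31). KLF4 peaks were thus called at the gene on day 9 and in ESC, at places only partly shared and many of them weak. Farther out, chr7:139914226-139914656 near Kndc1 had a peak in both libraries of day 3, day 9 and serum, with folds between 2.05 and 4.62, and chr7:139950149-139951010 had 4.93 and 4.37 in 2i, a peak of 2.75 in 1 serum library and one of 3.05 in 1 day 3 library.

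The promoter of Utf1 (chr7:139943606-139943905, plus strand, 300 bases from RefSeq, GRCm38.p6) overlapped peaks of both marks on day 9. The KLF4 peaks of the day 9 libraries lay over 292 and 235 of its 300 bases and the H3K27ac peaks over 88 and 135. It is printed 5′ to 3′, from 250 bases before the start site to 50 after, because both marks reached it before ESC, and the capitals mark GC boxes, the letters GGGCGG.
Utf1: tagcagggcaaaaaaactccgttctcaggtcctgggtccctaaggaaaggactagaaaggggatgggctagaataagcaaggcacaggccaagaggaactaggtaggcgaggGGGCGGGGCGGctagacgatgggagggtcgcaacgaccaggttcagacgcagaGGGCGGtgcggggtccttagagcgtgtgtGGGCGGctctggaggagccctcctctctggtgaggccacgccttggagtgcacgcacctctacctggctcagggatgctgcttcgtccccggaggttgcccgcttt
It held 4 GC boxes, of which the first and second share a base, and 17 CpG dinucleotides, beside a median of 7 over all promoters of the table. The KLF core letters GGGNGTGG and the octamer ATGCAAAT, searched on both strands, were not in this window. They occur in 17.6% and 1.74% of the 32851 promoters of 300 bases.

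Tcl1 (chr12:105216753-105222737) was the one gene with KLF4 in both day 9 libraries and H3K27ac in neither, a combination called for 1.22% of all protein-coding genes. H3K27ac at the gene was found in ESC alone, at chr12:105220737-105226067, with folds of 20.3 and 13.7. A second ESC region, chr12:105258444-105259462 at 35.7 kb, had 19.0 and 16.0. KLF4 lay at 2 places by the gene that differed in time. The region 1.87 kb upstream of it, chr12:105224611-105225290, had a peak in 1 day 6 library (3.61), both day 9 libraries (4.26 and 2.78), both serum libraries (4.62 and 5.27) and both 2i libraries (2.88 and 3.89). The region at the promoter, chr12:105222555-105223265, had none before ESC and folds of 3.17 and 3.90 in serum and 5.32 and 4.53 in 2i. Both lie inside the acetylated region of ESC, so KLF4 was at its upstream side when the acetylation was not yet called. The second of the day 9 peaks had a −log10 q of 1.44 and did not pass a q-value of 0.01. Neither did the 2i peaks of the upstream region (0.367 and 1.87), while its serum peaks did. At the promoter the serum peak of EA-2697_1 had 0.445 and did not pass, and the other serum peak and both 2i peaks did.

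The promoter of Tcl1 (chr12:105222688-105222987, minus strand, 300 bases from RefSeq, GRCm38.p6) had no peak of either mark before ESC, and is printed for comparison with that of Utf1. In ESC, KLF4 peaks lay over all 300 bases in 1 serum and 1 2i library and over 240 in the other 2i library. The peak of the serum library EA-2697_1 in that region lay beyond the promoter and shared no base with it. The capitals mark CACCC boxes and GC boxes on either strand, CACCC or GGGTG and GGGCGG or CCGCCC.
Tcl1: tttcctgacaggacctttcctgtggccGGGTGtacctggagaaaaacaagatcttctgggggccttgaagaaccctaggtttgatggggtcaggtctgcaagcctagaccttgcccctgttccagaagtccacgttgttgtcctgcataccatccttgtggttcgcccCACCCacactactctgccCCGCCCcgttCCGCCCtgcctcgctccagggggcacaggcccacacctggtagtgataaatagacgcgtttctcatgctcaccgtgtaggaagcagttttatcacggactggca
It held 2 CACCC boxes and 2 GC boxes, none overlapping another, and 11 CpG dinucleotides. The KLF core and octamer letters were not in this window either. CACCC occurs in 57.5% and GGGCGG in 35.7% of all promoters of the table, and both were added to the search after the first letters had been looked for. A match of letters is a description and no binding site.

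Tcl1 also had a site acetylated on day 9 alone. At 45.8 and 46.8 kb from it, 2 adjoining regions, chr12:105169262-105169935 and chr12:105170215-105170946, had H3K27ac in both day 9 libraries, with folds of 4.25 and 4.69 and of 3.71 and 3.57, and in no other library. KLF4 at chr12:105169848-105170230, which touches both, was found in 1 day 3 library (2.66), both day 6 libraries (3.89 and 6.30) and both day 9 libraries (5.47 and 4.06), and in none of the 4 ESC libraries. The nearer relatives Tcl1b4, Tcl1b3 and Tcl1b5, which lie between this site and Tcl1, had no peak of either mark in any library.

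**Figure D3:**
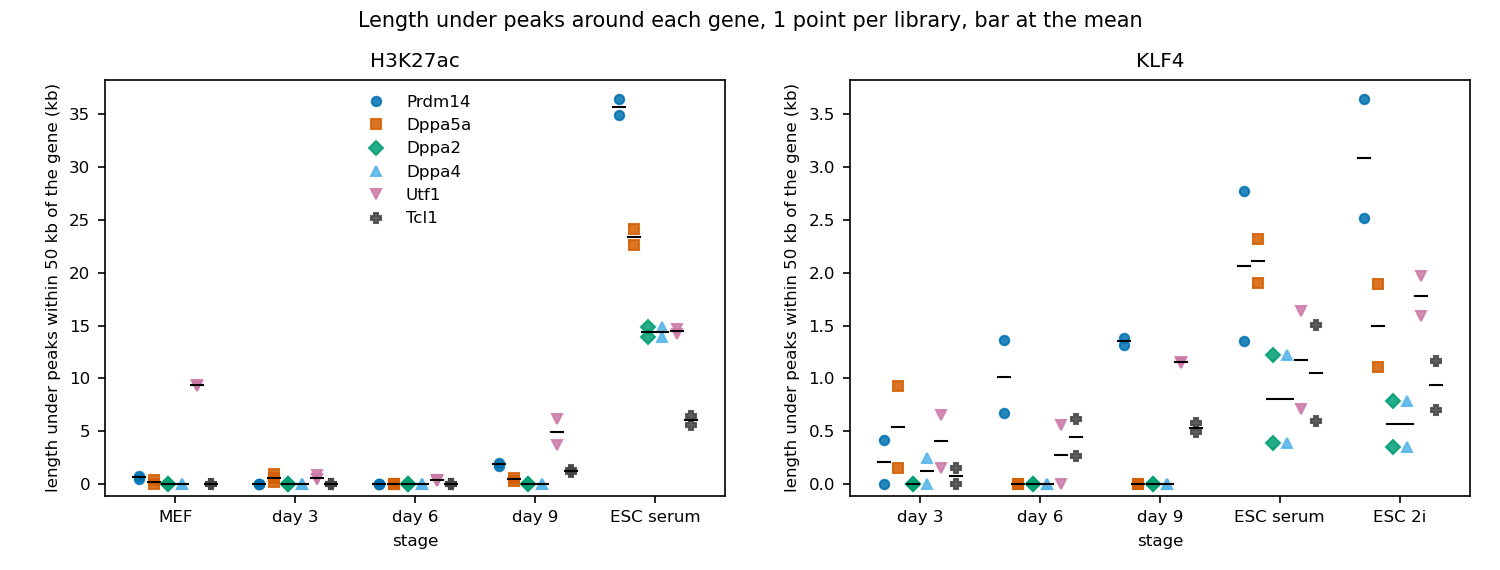
Points give the length in kb under peaks within 50 kb of each gene in 1 library, with a bar at the mean of the stage, for H3K27ac (left) and KLF4 (right, another scale). For H3K27ac the ESC libraries of every gene lie above its libraries of all other stages, from 5.62 kb for Tcl1 to 36.4 kb for Prdm14, and Utf1 has the highest MEF values, 9.41 and 9.33 kb.

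The order of the genes by covered H3K27ac in ESC was Prdm14, Dppa5a, then Dppa2 with Dppa4 and Utf1, then Tcl1. The values of Dppa2, Dppa4 and Utf1, between 13.9 and 14.9 kb, overlapped, and those of the other neighbours in this order did not. By the highest fold over the gene the order was another, with Dppa5a first and Utf1 next. The ESC folds of Tcl1 (20.3 and 13.7), Dppa2 (19.3 and 14.0) and Dppa4 (11.2 and 14.2) overlapped one another. Those of Utf1 lay above all 3, and those of Prdm14 (11.0 and 8.23) below, with 2 libraries each. Among the 6 genes Prdm14 thus combined the longest acetylated surroundings with the lowest folds at the gene.

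KLF4 and acetylation coincided in ESC. All 18 KLF4 regions found in both serum ESC libraries overlapped an H3K27ac region of both ESC libraries, and 77.3% of all such KLF4 regions did. H3K27ac gained from day 9 to ESC together with KLF4 in both serum ESC libraries was found at Dppa2, Dppa4 and Tcl1, 3 of the 6 genes, and at 1.42% of all genes. In both day 9 libraries 9 of the 26 KLF4 regions were found, beside 51.5% of all, and of these 9, 6 overlapped an H3K27ac region of both day 9 libraries (79.2% over all), and 8 overlapped one of both ESC libraries (59.9% over all). The 3 without day 9 acetylation were the Prdm14 region at 38.4 kb, the Tcl1 region at 1.87 kb and the Utf1 region near Kndc1. At the Prdm14 region neither day 9 KLF4 peak passed a q-value of 0.01. At the Tcl1 region at 1.87 kb 1 did, and near Kndc1 both did. The 1 without ESC acetylation was the Tcl1 region at 46.5 kb. These H3K27ac regions are stage consensus peaks merged over stages, so an overlap can rest on a wide ESC region.

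**Figure D4:**
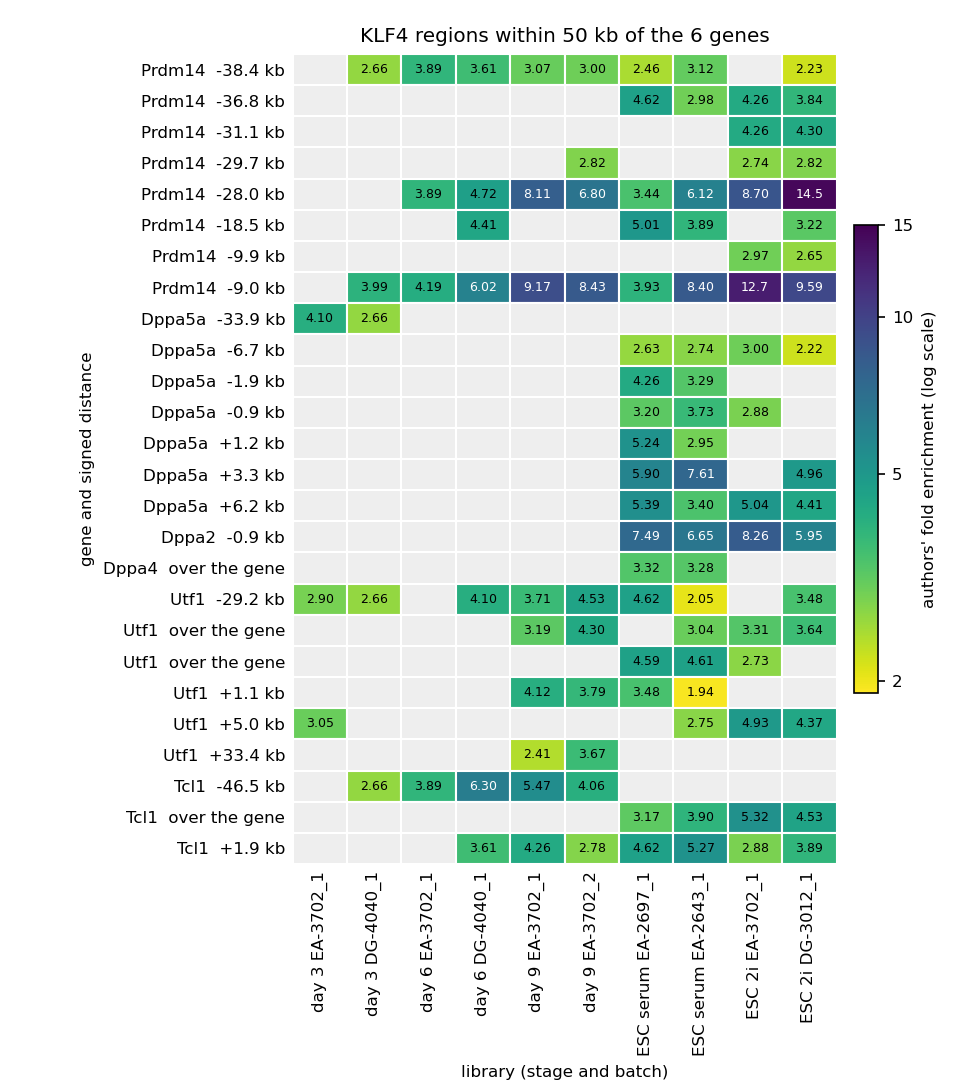
Each row is 1 of the 26 KLF4 regions with its gene and signed distance in kb (negative toward lower coordinates), each column 1 library, and the colour and number give the authors' fold (log scale, grey without a peak). The Prdm14 rows at 9.0 and 28.0 kb are filled in every library from day 6 onward, the first of them also in 1 day 3 library, the Dppa5a, Dppa2 and Dppa4 rows are filled in ESC only except the row near Gsta2, and the Tcl1 row at 46.5 kb is empty in ESC.

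The KLF4 regions of ESC were shared in part between the media, which are described without a test, since the 4 ESC libraries came from 4 batches. Of the 26 KLF4 regions, 18 were found in both serum libraries, beside 43.4% of all KLF4 regions. Of the 26, 8 were found in both serum and both 2i libraries, 6 in both serum and 1 of the 2i libraries, and 4 in both serum libraries and neither 2i library. Over all 16111 KLF4 regions of both serum libraries, 57.6% were found in both and 20.0% in neither of the 2i libraries. The 4 regions without 2i lay at Dppa5a (2), Dppa4 and Utf1. A further 3 regions, all near Prdm14, were found in both 2i libraries and in neither serum library, at 9.93, 29.7 and 31.1 kb. Their folds ran from 2.65 to 4.30, and 5.29% of all KLF4 regions were found so. Of these 2i peaks only those at 31.1 kb passed a q-value of 0.01. The −log10 q was 0.231 and 0.334 at 9.93 kb, and 0.310 and 0.409 at 29.7 kb. The region at 29.7 kb also had a peak of fold 2.82 in 1 day 9 library. In a comparison of 2 against 2 libraries from different batches, medium and batch cannot be told apart.

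Within single batches the order of stages could be followed in part, an addition made after the data were seen. In batch DG-3458, which held 6 H3K27ac libraries of MEF, day 3 and day 6 and the 2 of ESC, Prdm14, Dppa2, Dppa4, Utf1 and Tcl1 had no peak in any of the 6 and a peak in both ESC libraries. That was 5 of 6 genes, beside 4.86% of all genes, and the sixth, Dppa5a, had its weak MEF peak. In batch EA-3702, which held both KLF4 libraries of day 9 and 1 of 2i, Prdm14, Dppa5a and Dppa2 had no KLF4 on day 9 and a peak in 2i, 3 of 6 genes beside 9.02% of all. When each library was limited to an equal count of its best peaks, 17493 for H3K27ac and 21129 for KLF4, H3K27ac was gained from day 9 to ESC at 5 of the 6 genes, all but Utf1, beside 2.90% of all genes. KLF4 was gained at Dppa5a, Dppa2 and Dppa4, beside 4.19%.

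Among 20 other genes of the pluripotency network H3K27ac was found in both day 9 libraries at 18 and in both ESC libraries at 20, beside 2 and 6 of the 6 genes described here. KLF4 was found in both day 9 libraries at 17 of the 20, beside 2 of 6, and at 43.1% of all protein-coding genes. The 6 genes were selected as marked late and the 20 were listed with earlier results known. The lower day 9 counts of the 6 therefore follow from that choice and are a description. Gained H3K27ac was found at 2 of the 20, Dppa3 and Dnmt3l, and gained KLF4 at Dppa3. Esrrb, a nuclear receptor gene of naive pluripotency, had folds of 5.92 and 8.15 on day 9 and 36.1 and 31.9 in ESC, and Eras, a gene for a RAS-like protein, 5.73 and 5.55, then 10.0 and 15.4. Dnmt3l, a cofactor of the DNA methyltransferases, had no H3K27ac on day 9 and 16.9 and 17.6 in ESC, while both day 9 libraries had a KLF4 peak at it, of folds 2.79 and 2.70, of which neither passed a q-value of 0.01 (−log10 q of 0.242 and 0). Dppa3, a maternal-effect gene, had H3K27ac in both MEF libraries (5.12 and 4.06), none from day 3 to day 9, and 3.75 and 2.58 in ESC.

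Genes with the most similar pattern were ranked by the mean absolute difference, over 22 libraries, in the percentile of the best peak score over the gene (0 without a peak). Dppa2 had the closest ones, Ms4a14, C7 and Mcf2, at 1.26, 1.47 and 1.58 percentile points, each with a peak in 6 libraries as Dppa2. For Prdm14, with peaks in 5 libraries, they were Olfr52, Gm6351 and Gm5134 at 1.98, 2.54 and 2.58, each with peaks in 4. For Dppa5a they were Zfp534, Aire and C2cd4b at 3.99, 4.37 and 4.88. Utf1 and Tcl1 had no gene as near, with Fcrl5 at 6.34 as the first for Utf1, before Ubd (7.32) and Myh14 (8.64), and Rnf212b at 6.09 as the first for Tcl1. Dppa4, with peaks in 4 libraries, was not ranked. Some libraries of a stage share a batch or have lists of similar length, and others do not. Such a likeness includes this.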

How the data were processed

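Chromatin immunoprecipitation libraries had been sequenced single-end, per the labels' protocols. The submitters' processing notes name cutadapt 1.8.1, Bowtie2 2.2.5, MACS2 2.1.1, deepTools 2.3.6 and the build mm10, with no roles or settings given in the sources used here. The authors deposited 1 peak list per library (22 lists), so peaks had been called per sample. For each peak the authors deposited a score, a fold enrichment (a ratio), a −log10 p-value and a −log10 q-value, and the lists end near p 0.01. Sequencing depth is unknown, so no test on reads was made, and the 13 input libraries were not analysed here.

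Peaks on chromosomes 1 to 19 and X were used. A shared length of 1 bp counted as an overlap. Regions were the merged stage consensus peaks (at least 2 libraries) of a mark. Gene coordinates and promoters came from RefSeq tables of GRCm38.p6, in which 2 of the 6 genes have a promoter. Gene-level peaks lay over the gene widened by 2.5 kb to each side. The 6 genes and the gene lists were chosen with earlier results of these data known, so no test was made. Named regions were all those within 2.5 kb of a gene and the 2 others within 50 kb with the best mean score rank over the ESC libraries, the weaker ones given as a range, and exceptions are stated. Likeness was ranked for genes with peaks in at least 5 libraries, against genes over 100 kb away. Alternatives were to keep the better-scoring 50% of a list, equal numbers of top peaks, a q-value of at most 0.01, an overlap of 50% of the shorter interval, regions from any library, windows of 20 and 100 kb, genes widened by 1 and 10 kb, KLF4 regions without 2i, and omitting single libraries (a stage left with 1 library then needs 1 peak). The code was checked on simulated lists. Python 3.11.15, pandas 2.3.3 and NumPy 2.4.6 were used.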

Additional observations from a re-analysis of the deposited data

How the results depend on the processing

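The 6 genes with H3K27ac in both ESC libraries were 6 under every alternative run. The number of genes with H3K27ac gained from day 9 to ESC, 4, lay between 3 (genes widened by 10 kb) and 5. The gene lost at 10 kb was Prdm14, with peaks of both day 9 libraries in the region 7.56 kb from it. The number for KLF4, 3, lay between 2 (q-value of at most 0.01) and 4 (genes widened by 1 kb). Region counts depended on list length. The 58 H3K27ac regions became 30 with the top 50% of each list or a window of 20 kb, 19 with equal numbers of peaks and 88 with regions from any library. Of these, the 40 gained became 23 with the top 50% or a q-value of at most 0.01, 15 with equal numbers and 26 within 20 kb. The 26 KLF4 regions became 14 with the top 50%, 16 with that q-value, 57 with regions from any library and 17 within 20 kb. H3K27ac in both day 9 libraries was found at 1 gene, not 2, with the top 50%, equal numbers or a q-value of at most 0.01. It was found at 3 with genes widened by 10 kb. KLF4 in both day 9 libraries was found at 0 genes with the top 50%, and at 1 with that q-value or with genes widened by 1 kb. Leaving out each library in turn gave 58 to 84 H3K27ac regions, 40 to 66 gained H3K27ac regions (66 without the ESC library DG-3458_2), 26 to 42 KLF4 regions (42 without the 2i library EA-3702_1) and 12 to 21 gained KLF4 regions (21 without the serum library EA-2697_1), since a stage left with 1 library then needs 1 peak. Counts of genes moved by at most 1 on leaving out a library. No paired analysis was possible because the results come from no test, and the day 9 and serum ESC libraries share no batch. Peak lists limit all of this: depth is unknown, 2 or 3 libraries stand for a stage, and for both marks day 9 and serum ESC come from different batches.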
